A study of Mus musculus with 9 samples.

Results

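The genes described here are those of the mouse replication-dependent histones and the histone variants H2afx, H2afz, H2afy, H2afv, H3f3a, H3f3b and H1f0. Members were taken by gene symbol alone, as every row of the deposited table whose symbol begins with Hist1 to Hist4 and goes on with h1, h2a, h2b, h3 or h4, plus the 7 named variants. This gave 75 of the 36410 rows, of which 68 are rows of the histone gene clusters and 7 are variants. By histone the cluster rows divide into 6 H1, 19 H2A, 18 H2B, 12 H3 and 13 H4 rows.

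Ribosome-protected fragments (footprints) were counted in 3 lines of immortalized mouse striatal cells, with 3 libraries for each line that come from independent rounds of culture. The study describes them as knock-in cell models, with the control derived from wild-type embryos. The control line, STHdhQ7/Q7, carries Htt with a tract of 7 glutamines on each allele. The HD-het line, STHdhQ7/Q111, carries 1 allele with 7 and 1 with 111 glutamines, and the HD-homo line, STHdhQ111/Q111, carries 111 glutamines on each. All cells were labelled C57/BL6 in strain, were plated at the same confluency and received cycloheximide, an inhibitor that arrests ribosomes on the mRNA, before lysis. Library totals ran from 22504543 to 41888701 counts. Each genotype was a single cell line, so genotype and line cannot be told apart. The values are footprint abundances and were not divided by mRNA levels, and fewer cells in S phase cannot be told apart from fewer histone footprints in each cell.

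Core histones H2A, H2B, H3 and H4 form the nucleosome, the spool on which DNA is wound, and linker histone H1 binds the DNA between nucleosomes. Replication-dependent histone genes lie in clusters, have no introns, and are transcribed mainly in S phase, when newly copied DNA has to be packaged. Their mRNAs end in a conserved stem-loop in place of a poly(A) tail, and the stem-loop is bound by SLBP, which acts in the processing, translation and decay of these mRNAs. Variants such as H2A.Z and H3.3 are made throughout the cell cycle from polyadenylated mRNAs and mark particular regions of chromatin. Although the labels give the molecule as polyA RNA, the library steps they describe are size selection of monosome footprints and rRNA depletion, with no selection for poly(A) tails.

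The stem-loop is shown here because it is the feature that separates the cluster mRNAs from those of most variants. A stem of 6 bases beginning with GG, a loop of 4 bases beginning with TT and the 6 bases that pair with the stem were searched for in the 150 bases that follow the stop codon, with coding ends from GENCODE M21 and the bases from the GRCm38 genome. A match was found for 64 of the 74 members with a coding sequence and for 10 of 21779 other genes, or 0.0459%. It began 22 to 59 bases after the stop codon. The form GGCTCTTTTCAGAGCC was carried by 41 members of the H1, H2A, H2B and H3 families, and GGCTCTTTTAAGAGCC by 9. All 12 H4 genes with a match had other forms than these, with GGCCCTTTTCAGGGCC in 8 of them, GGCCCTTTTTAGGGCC in 2 and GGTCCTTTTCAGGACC in 2. No match was found for the variants H1f0, H2afv, H2afy, H2afz, H3f3a and H3f3b, or for the cluster rows Hist1h2an, Hist1h3g, Hist1h4a and Hist2h2be. H2afx was the 1 variant with a stem-loop. In the lines that follow, capitals mark the stem-loop and lower case the 5 bases on each side, 5′ to 3′ along the mRNA, written as DNA. They show the H2B row with the most footprints, the most abundant H1 row, the H2B row with the largest difference between the mutant lines, a pair of the H4 stems, H2afx, and a pair of rows that departed from the rest.
Hist2h2bb (chr3:96270171-96270186, plus strand): caaaaGGCTCTTTTCAGAGCCacttt
Hist1h1b (chr13:21779837-21779852, minus strand): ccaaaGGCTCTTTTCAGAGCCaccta
Hist1h2bb (chr13:23747203-23747218, plus strand): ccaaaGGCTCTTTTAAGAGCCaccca
Hist4h4 (chr6:136803998-136804013, minus strand): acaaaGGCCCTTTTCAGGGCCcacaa
Hist1h4b (chr13:23757366-23757381, plus strand): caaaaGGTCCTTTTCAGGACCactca
H2afx (chr9:44335240-44335255, plus strand): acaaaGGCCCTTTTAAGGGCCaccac
Hist3h2ba (chr11:58949349-58949364, plus strand): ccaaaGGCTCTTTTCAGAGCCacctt
Hist1h2af (chr13:23534359-23534374, plus strand): ccaaaGGCTCTTTTCAGAGCCaccac

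Because most cluster rows moved together, their promoters were read as well, from RefSeq on GRCm38.p6 (250 bases before to 50 after the annotated start). A promoter was found for 61 cluster rows and 6 variants. The letters TATAAA (the TATA box), CCAAT (the core of the CCAAT box) and ATTTGCAT (the octamer known from H2B promoters) were searched on both strands, and none of the 3 contains another. TATAAA stood in 57.4% of the cluster promoters and in 14.1% of the 26958 promoters of other genes. CCAAT stood in 85.2% against 37.8%, and ATTTGCAT in 21.3% against 1.71%. The families differed in these letters, since every H1, H2A, H2B and H3 promoter held CCAAT but only 25% of the H4 promoters did. ATTTGCAT stood in 41.2% of the H2A and 37.5% of the H2B promoters and in no H1, H3 or H4 promoter. Written out for 4 rows are the bases before the start, on the strand of the gene and with all matches in capitals, namely the H2B rows that carried the most footprints, differed most between the mutant lines and fell most in HD-homo cells, and an H4 row with no match.
Hist2h2bb (chr3:96269450-96269699, plus strand): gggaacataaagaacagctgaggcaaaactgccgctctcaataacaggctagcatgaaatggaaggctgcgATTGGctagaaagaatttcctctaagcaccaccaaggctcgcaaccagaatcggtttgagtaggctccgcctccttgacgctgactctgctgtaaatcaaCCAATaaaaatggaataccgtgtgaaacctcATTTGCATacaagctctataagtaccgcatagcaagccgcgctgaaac
Hist1h2bb (chr13:23746484-23746733, plus strand): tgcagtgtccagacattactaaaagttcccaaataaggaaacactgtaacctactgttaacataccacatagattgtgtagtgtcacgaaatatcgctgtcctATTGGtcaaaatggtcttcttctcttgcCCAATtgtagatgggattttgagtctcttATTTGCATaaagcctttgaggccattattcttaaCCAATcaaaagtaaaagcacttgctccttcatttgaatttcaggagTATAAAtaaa
Hist3h2ba (chr11:58948661-58948910, plus strand): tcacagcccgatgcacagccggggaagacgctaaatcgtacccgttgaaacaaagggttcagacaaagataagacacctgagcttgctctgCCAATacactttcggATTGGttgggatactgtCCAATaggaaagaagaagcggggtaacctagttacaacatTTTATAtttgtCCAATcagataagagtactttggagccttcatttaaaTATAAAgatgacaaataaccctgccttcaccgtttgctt
Hist1h4b (chr13:23756687-23756936, plus strand): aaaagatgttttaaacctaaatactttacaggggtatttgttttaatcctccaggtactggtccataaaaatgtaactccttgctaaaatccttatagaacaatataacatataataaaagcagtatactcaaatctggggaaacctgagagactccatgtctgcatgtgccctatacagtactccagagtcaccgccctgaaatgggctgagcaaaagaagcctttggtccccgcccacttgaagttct

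Paralogous histone genes are so alike that a footprint can match several of them, and how the authors' counting treated such fragments is not given in the sources used here. Of all coding windows of 28 bases, at least 50% were found in no other gene for 16 members, and none was for another 16. In 3 pairs of rows, Hist1h2bq with Hist1h2br, Hist2h2aa1 with Hist2h2aa2 and Hist2h3c1 with Hist2h3c2, the counts were the same in every library, so that they carry the same measurement under each name. By contrast, Hist1h4m and Hist1h4n, whose windows are identical, held different counts. Values of single core histone rows are therefore uncertain as to which paralog they belong to, and sums over a family are given first.

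Footprints on replication-dependent histone genes were lower in HD-het than in control cells in every family, while in HD-homo cells they overlapped the control level or lay above it. All 68 cluster rows together had 14139, 12358 and 15172 CPM (counts scaled to a TMM-adjusted library total of 1000000) in the control libraries, 5946, 5638 and 7324 CPM in the HD-het and 14309, 15748 and 17920 CPM in the HD-homo libraries. The HD-het libraries lay below all 6 others, while control and HD-homo libraries overlapped. The log2 ratio of the means was -1.14 for HD-het against control, 0.20 for HD-homo against control and 1.34 for HD-homo against HD-het. These rows took between 0.562% and 1.80% of all counts of a library, or 0.534% to 1.7% with rows of the same counts taken once.

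By family, H1 rows summed to 3956 ± 220 CPM in control cells, to 2080 ± 304 CPM with 1 expanded allele (HD-het) and to 4465 ± 278 CPM with 2 (HD-homo; SD, n = 3 each). H2A rows summed to 3259 ± 298, 1356 ± 256 and 3443 ± 268 CPM, and H2B rows to 2606 ± 355, 1056 ± 174 and 3125 ± 662 CPM, in the same order. H3 rows summed to 1724 ± 369, 733 ± 54.0 and 2451 ± 567 CPM and H4 rows to 2346 ± 236, 1078 ± 145 and 2509 ± 131 CPM. In each family every HD-het library lay below every library of the other lines. The log2 ratio of HD-het to control ran from -0.93 for H1 to -1.30 for H2B. HD-homo libraries lay above all control libraries only for H1, at a log2 ratio of 0.17, and overlapped them in the core histone families, the largest ratio there being 0.51 for H3. Scaled by coding length, control cells had 8370 CPM per kb on H2A, 7591 on H4, 6894 on H2B, 6038 on H1 and 4225 on H3 rows. These sums hold both rows of each pair with the same counts. With such rows taken once, the control sums were 2746 CPM for H2A, 2560 for H2B and 1444 for H3. Per kb they were then 7054 for H2A, 6772 for H2B and 3539 for H3, so that H4 was the highest family and not H2A.

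**Figure D1:**
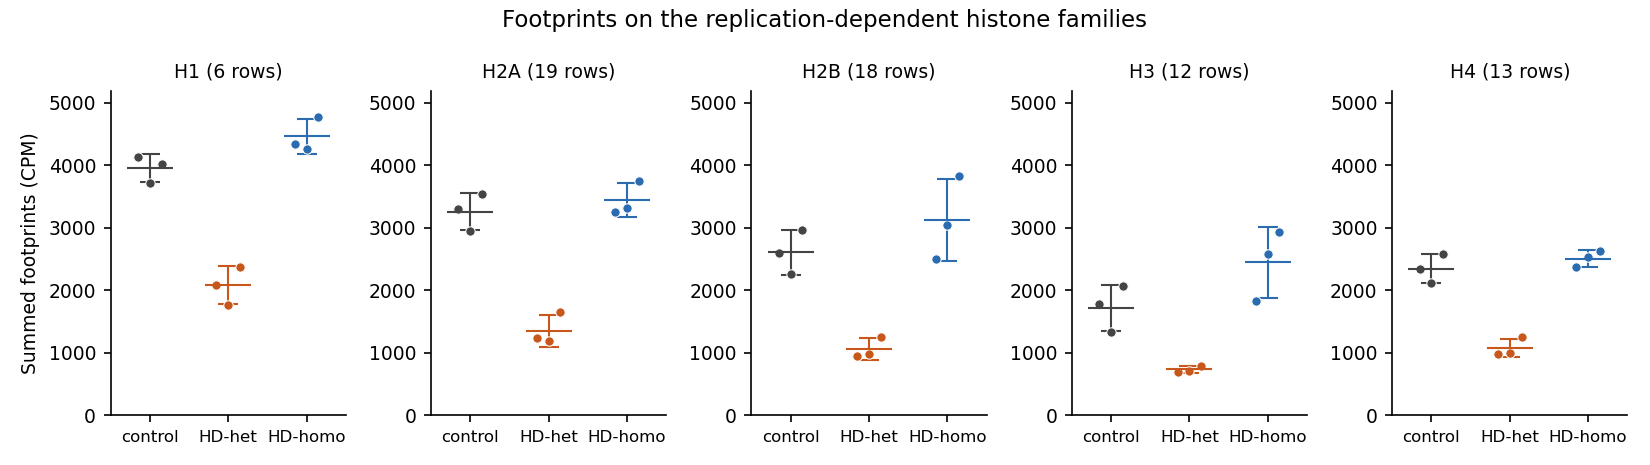
Summed footprints (y axis, CPM) over the cluster rows of each histone family, with 1 panel per family and points for the 3 libraries of each line. Long horizontal lines are means and whiskers are SD. In all 5 panels the HD-het points lie below those of both other lines, and only for H1 do all HD-homo points lie above the control points.

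Single rows were tested with the quasi-likelihood test of edgeR on all 12678 rows that passed the filter on low counts, and a row was called at a Benjamini-Hochberg adjusted p under 0.05. The filter kept 73 of the 75 members. Hist1h1t, the testis-specific H1, did not pass, with at most 0.621 CPM in a library. Hist1h2al, now under the pseudogene symbol H2af-ps2 and with no coding sequence found, had a count of 0 in all 9 libraries. A count of 0 allows up to 0.133 CPM by counting error alone. In HD-het against control, 66 of the 73 members fell and 1 rose, where 29.1% of all tested rows were called lower and 31.0% higher. The median log2 fold change of the members was -1.08, with a range from -2.11 to 0.71, beside 0.02 for all tested rows. The fall was at least 2-fold in 43 members. All HD-het libraries lay below all control libraries for 67 members and above them for 1, against 35.0% and 36.2% of all rows.

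Every family took part in the fall. All 5 tested H1 rows, 15 of 18 H2A, 17 of 18 H2B, 11 of 12 H3 and 13 of 13 H4 rows fell in HD-het cells. Family medians of the log2 fold change were -0.94 for H1, -1.13 for H2A, -1.33 for H2B, -1.01 for H3 and -1.10 for H4. Beyond the large cluster on chromosome 13 it was found in the other clusters too, since 48 of 53 tested Hist1 rows and all 10 Hist2 rows fell, with medians of -1.12 and -1.24. Both Hist3 rows and the 1 Hist4 row fell too.

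In HD-homo against HD-het, which asks how the lines with 2 and with 1 expanded allele differ, 64 of the 73 members were called higher and 2 lower, where 34.6% and 32.8% of all rows were. The median log2 fold change was 1.35, and the difference was at least 2-fold in 54 members. Libraries did not overlap for 62 members in the upward and 1 in the downward direction, against 35.6% and 33.9% of all rows. Family medians were 1.18 for H1, 1.35 for H2A, 1.54 for H2B, 1.56 for H3 and 1.30 for H4. This comparison shares its HD-het libraries with the first, so the calls of both are not independent of each other.

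HD-homo cells differed from control in far fewer members. There 9 members rose, 4 fell and 60 were not called, where 23.3% of all rows were called higher and 22.3% lower, so the members' share called was below that of all rows. The median log2 fold change was 0.23, between -2.41 and 0.69. Libraries did not overlap upward for 15 members and downward for 6, against 28.3% and 27.2% of all rows. The number of members that rose depended on single libraries, with 4 when control replicate 1 was left out and 21 without HD-homo replicate 2. The rising members were Hist1h1c, Hist1h2ab, Hist1h2ao, Hist1h2ap, Hist1h3c, Hist1h3d, Hist1h3h, Hist1h4c and Hist1h4h, and those that fell were Hist1h1a, Hist3h2a, Hist3h2ba and H2afz.

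Read across all 3 comparisons, 53 members were lower in HD-het than in control, not called in HD-homo against control, and higher in HD-homo against HD-het, a course shared by 72.6% of the tested members and 14.6% of all tested rows. Another 9 members, the rising ones named above, also had the low HD-het and high HD-homo calls (12.3% against 5.10% of all rows). No call was made in any comparison for H2afv, H3f3a, Hist1h2aa, Hist1h2an and Hist1h3e.

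**Figure D2:**
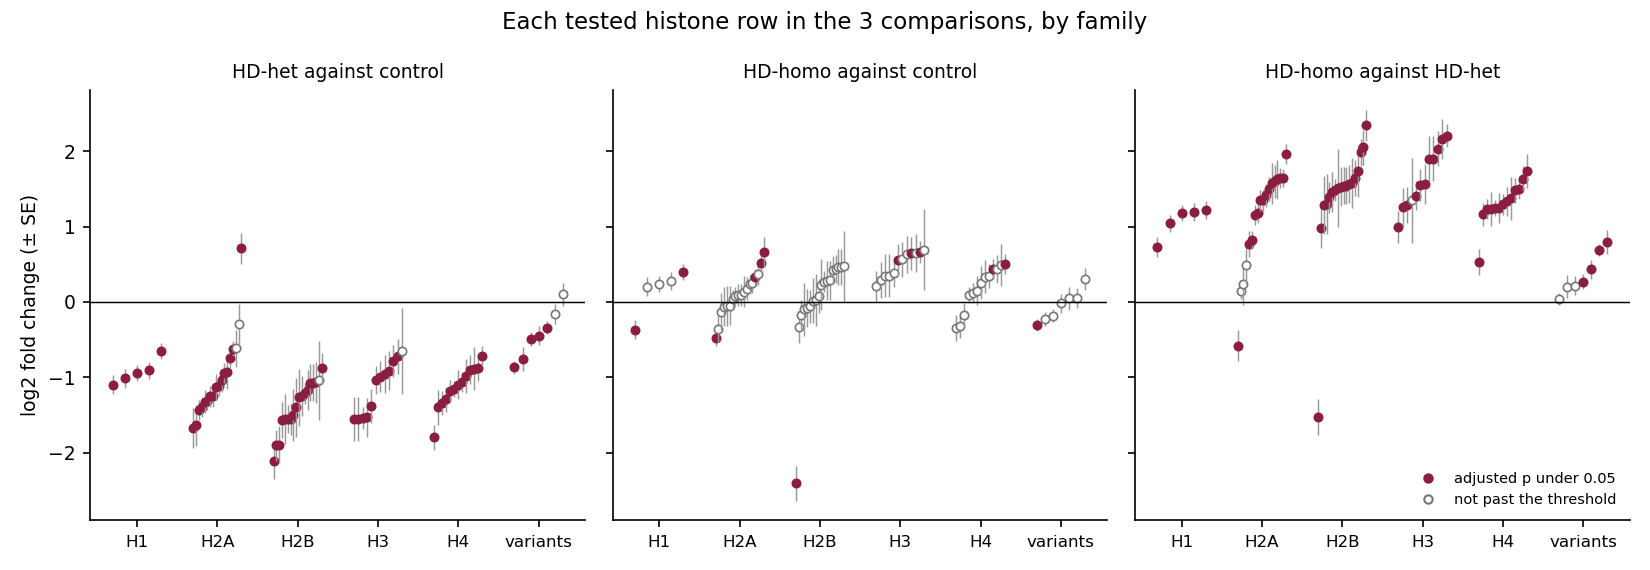
Log2 fold change (y axis, with SE) of each of the 73 tested members in the 3 comparisons, ordered within each family along the x axis. Filled points passed an adjusted p of 0.05 and open points did not. In the left panel 66 filled points lie below 0 and 1 above, in the middle panel most points are open and near 0, and in the right panel 64 filled points lie above 0.

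As a family, H1 rows are the most distinct in sequence of the cluster rows. Among the 5 tested H1 rows 63.8% to 99.2% of coding windows were found in no other gene. Hist1h1c, Hist1h1d and Hist1h1e lay between 63.8% and 69.3%, below some single rows of other families such as Hist4h4 at 97.5%. As a family, the H1 values therefore rest least on how shared fragments were counted. Hist1h1b, the linker histone H1.5, had 1253, 1095 and 1192 CPM in control, 641, 550.4 and 693 CPM in HD-het and 1308, 1316 and 1673 CPM in HD-homo libraries. All HD-het libraries were below and all HD-homo libraries above the control range. The fall in HD-het cells was -0.91 ± 0.12 on the log2 scale (SE, edgeR adjusted p = 6e-05), whereas HD-homo against control gave 0.28 ± 0.12 and was not called (adjusted p = 0.073). Hist1h1d and Hist1h1e, which encode H1.3 and H1.4, fell in HD-het cells by 1.02 and 0.94 on the log2 scale and gave 0.20 and 0.24 in HD-homo against control, neither called. Hist1h1e was close to constant in HD-homo cells, with 828, 831 and 826 CPM, against 751, 646 and 712 CPM in control and 374, 309.9 and 415 CPM in HD-het libraries.

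Hist1h1c, which encodes H1.2, fell least of the H1 rows in HD-het cells and rose in HD-homo cells. It had 614, 568 and 524 CPM in control, 353, 315 and 419 CPM in HD-het and 807, 701 and 735 CPM in HD-homo libraries, with no overlap between any lines. The log2 fold change was -0.65 ± 0.11 in HD-het against control (edgeR adjusted p = 0.00042) and 0.40 ± 0.11 in HD-homo against control (adjusted p = 0.013). The rise was no longer called without control replicate 3 or without the deepest library of each line. Hist1h1a, which encodes H1.1, took the opposite course in HD-homo cells. It had 732, 688 and 773 CPM in control, 347, 286 and 392 CPM in HD-het and 534, 504 and 661 CPM in HD-homo libraries, so that HD-homo lay between the other lines without overlap. On the log2 scale it fell by 1.10 ± 0.13 in HD-het libraries and by 0.37 ± 0.13 in HD-homo libraries (edgeR adjusted p = 3.2e-05 and 0.037), but the second call was lost in 5 of the 9 fits that left out 1 library, namely without any 1 control library or without HD-homo replicate 1 or 2, and without the deepest library of each line.

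Among H2A rows, Hist2h2aa1 and Hist2h2aa2, a duplicated gene on chromosome 3, had the highest level, with 497, 454 and 588 CPM in control, 189, 187 and 269 CPM in HD-het and 578, 518 and 543 CPM in HD-homo libraries. HD-het libraries lay far below the rest and the other lines overlapped. The fall was -1.25 ± 0.14 on the log2 scale (edgeR adjusted p = 2.5e-05). Hist1h2ao had 380.3, 341 and 399 CPM in control, 135, 164 and 149.7 CPM in HD-het and 428, 429 and 548 CPM in HD-homo libraries. It fell by 1.32 ± 0.12 in HD-het cells and rose by 0.33 ± 0.12 in HD-homo cells (edgeR adjusted p = 4.2e-06 and 0.038) but the rise was lost without control replicate 1 or 2, HD-het replicate 3 or HD-homo replicate 3, without the deepest library of each line, and in the fit of only the 6 libraries compared. Hist1h2ap, whose windows are the same, had far fewer counts, with 7.56, 9.35 and 6.66 CPM in control, 4.25, 3.27 and 5.01 CPM in HD-het and 16.2, 10.4 and 10.7 CPM in HD-homo libraries and no overlap. It rose by 0.66 ± 0.21 in HD-homo cells (edgeR adjusted p = 0.021), a call lost without HD-homo replicate 1 or control replicate 1 or 3. The symbol Hist1h2ap matched 2 RefSeq genes, 1 of them that of Hist1h2ao, so the gene behind these counts is uncertain. Hist1h2ab rose more than Hist1h2ao in HD-homo cells. It had 182, 190.4 and 156 CPM in control, 56.1, 60.9 and 78.4 CPM in HD-het and 258, 229 and 271 CPM in HD-homo libraries, with no overlap between lines. Its log2 fold changes were -1.44 ± 0.13 and 0.52 ± 0.13 against control (edgeR adjusted p = 4.7e-06 and 0.006).

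Other abundant H2A rows fell in HD-het cells without a call in HD-homo against control. Hist1h2ag and Hist1h2ad fell by 1.64 and 1.68 on the log2 scale, with 332 ± 46.9 and 321 ± 41.6 CPM in control and 107 ± 31.0 and 100.4 ± 30.2 CPM in the HD-het line (SD, n = 3). Hist2h2ac had 398, 343 and 455 CPM in control, 159, 146 and 240.0 CPM in HD-het and 297, 290.2 and 343 CPM in HD-homo libraries. Its fall in HD-het cells was -1.14 ± 0.17, and HD-homo cells gave -0.36 ± 0.17 against control (edgeR adjusted p = 0.0002 and 0.11).

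Hist2h2bb was the most abundant H2B row, and per kb of coding sequence it was also the highest of all members in control cells, at 3778 CPM per kb. It had 1459, 1231 and 1594 CPM in control, 557, 579.6 and 708 CPM in HD-het and 1424, 1729 and 1999 CPM in HD-homo libraries. HD-het libraries lay below all others, and HD-homo overlapped control. It fell by 1.22 ± 0.14 in HD-het cells (edgeR adjusted p = 3e-05) and was 1.48 ± 0.14 higher in the HD-homo than the HD-het line (adjusted p = 4.2e-06). Its annotation is overlapped by the lincRNA Gm42743 on the same strand and by Gm20628 on the other, and strand use in counting is not given in the sources used here.

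Hist1h2bb, whose printed promoter holds all 3 motifs, showed the largest difference between the mutant lines. Its libraries had 121, 159 and 115 CPM in control, 29.2, 38.7 and 37.3 CPM in HD-het and 228, 130.3 and 176 CPM in HD-homo cells. HD-het libraries lay far below all others, and HD-homo overlapped control. The log2 fold change was -1.91 ± 0.20 in HD-het against control and 2.34 ± 0.20 in HD-homo against HD-het (edgeR adjusted p = 1.3e-05 and 1.8e-06), whereas HD-homo against control gave 0.44 ± 0.19 (adjusted p = 0.084). The largest fall in HD-het cells was that of Hist1h2bp, at low levels, with 20.0, 14.6 and 21.4 CPM in control, 3.30, 4.18 and 5.53 CPM in HD-het and 12.9, 19.0 and 21.8 CPM in HD-homo libraries. It fell by 2.11 ± 0.24 on the log2 scale (edgeR adjusted p = 2.1e-05). Hist1h2bj followed with a fall of 1.90 ± 0.24, from 3.60 ± 0.137 to 0.982 ± 0.176 CPM (SD, n = 3). Hist1h2be and Hist1h2bc fell by 1.25 ± 0.26 and 1.17 ± 0.26 in HD-het cells (edgeR adjusted p = 0.0016 and 0.0026).

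Of the 12 H3 rows 3 rose in HD-homo against control (25%), which is near the 23.3% of all tested rows. Among them was Hist1h3c, which had the highest called log2 fold change of the members, level with the H2A row Hist1h2ap. Hist1h3d lost its call without any 1 control library and without HD-het replicate 3. It was also lost without HD-homo replicate 3 and without the deepest library of each line. Hist1h3c had 235, 190.4 and 269 CPM in control, 72.7, 84.3 and 81.0 CPM in HD-het and 307, 359 and 434 CPM in HD-homo libraries, with no overlap between any lines. It fell by 1.54 ± 0.15 in HD-het cells and rose by 0.66 ± 0.14 in HD-homo cells (edgeR adjusted p = 6.8e-06 and 0.003). Hist1h3h rose by 0.65 ± 0.22 in HD-homo cells (edgeR adjusted p = 0.033), although 1 of its HD-homo libraries, at 68.5 CPM, lay within the control range of 60.4 to 71.1 CPM, and the call was lost without any 1 control library, without HD-homo replicate 1 or 3 and without the deepest library of each line. Hist1h3i had 254, 160.0 and 296 CPM in control, 74.7, 88.9 and 81.6 CPM in HD-het and 233, 393 and 473 CPM in HD-homo libraries. It fell by 1.53 ± 0.26 in HD-het cells and was 2.16 ± 0.26 higher in the HD-homo than the HD-het line (edgeR adjusted p = 0.00036 and 2.2e-05). Hist1h3f fell least of the abundant H3 rows, by 0.72 ± 0.23 (edgeR adjusted p = 0.02), and that call was lost without control replicate 3 and without HD-het replicate 1. Hist2h3c1 and Hist2h3c2 fell by 1.55 ± 0.29, from 279.8 ± 94.5 to 95.2 ± 16.8 CPM (SD, n = 3).

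Hist4h4, a lone H4 gene on chromosome 6 with 97.5% of its windows unique, had 488, 409 and 573 CPM in control, 240.1, 235 and 325 CPM in HD-het and 300.4, 448 and 409 CPM in HD-homo libraries. HD-het libraries lay below control, and 1 of the HD-homo libraries lay among them. It fell by 0.88 ± 0.18 in HD-het cells (edgeR adjusted p = 0.0012) and was 0.53 ± 0.17 higher in the HD-homo than the HD-het line (adjusted p = 0.018), a call lost without HD-het replicate 1 or 2 or without HD-homo replicate 2 or 3. Hist1h4b fell most of the H4 rows, with 288, 253 and 323 CPM in control, 76.3, 66.1 and 106 CPM in HD-het and 207, 258 and 229 CPM in HD-homo libraries. The fall was 1.80 ± 0.17 (edgeR adjusted p = 5.3e-06). Its annotation is overlapped on the other strand by 4930558J22Rik. Hist2h4 fell by 1.34 ± 0.16 (edgeR adjusted p = 3.1e-05). Hist1h4c and Hist1h4h also fell, by 0.72 ± 0.13 and 1.06 ± 0.13, and rose in HD-homo against control by 0.51 ± 0.13 and 0.43 ± 0.13 (edgeR adjusted p = 0.0082 and 0.02), the rise of Hist1h4h being lost without control replicate 1, without HD-homo replicate 1 or 3 and without the deepest library of each line.

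Hist1h2af was the only member that rose in HD-het cells. It had 15.3, 11.1 and 14.6 CPM in control, 21.8, 15.5 and 30.1 CPM in HD-het and 15.6, 14.9 and 14.3 CPM in HD-homo libraries. HD-het libraries lay above control, the lowest of them only just, and overlapped HD-homo. On the log2 scale HD-het against control gave 0.71 ± 0.21 and HD-homo against HD-het -0.58 ± 0.20 (edgeR adjusted p = 0.011 and 0.026), and the second call was lost in 4 of the fits that left out 1 library, those without HD-het replicate 1 or 3 or without HD-homo replicate 2 or 3. Of its coding windows 87.9% are shared with Hist1h2ad, which fell in the same cells.

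The Hist3 rows, on chromosome 11, stood out in HD-homo cells, where they fell as they did in HD-het cells. Hist3h2a had 70.4, 72.1 and 68.9 CPM in control, 44.1, 45.3 and 48.2 CPM in HD-het and 57.3, 49.96 and 43.9 CPM in HD-homo libraries. Control libraries lay above all others and both mutant lines overlapped. It fell by 0.62 ± 0.10 with 1 and by 0.48 ± 0.10 with 2 expanded alleles (edgeR adjusted p = 0.00026 and 0.002), and all of its coding windows also lie in the overlapping annotation of Trim17. Hist3h2ba, an H2B gene, fell in each step, with 5.92, 5.38 and 7.26 CPM in control, 3.61, 2.69 and 3.83 CPM in HD-het and 1.22, 1.45 and 0.754 CPM in HD-homo libraries and no overlap. It fell by 0.88 ± 0.21 with 1 and by 2.41 ± 0.23 with 2 expanded alleles (edgeR adjusted p = 0.0034 and 7.6e-06), and was the only member lower in HD-homo than HD-het libraries under every setting tried. As its sequences above show, Hist3h2ba has the common stem-loop and holds TATAAA and CCAAT, while Hist3h2bb-ps shares 57.3% of its windows.

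Of the 7 variants 5 (71.4%) were called lower in HD-het against control, where 29.1% of all tested rows were. Their median log2 fold change was -0.45 beside -1.13 for the cluster rows, a difference that was not tested, and their ranges overlapped. In HD-homo against control 1 of the 7, H2afz, fell (14.3%, against 22.3% of all rows), and in HD-homo against HD-het 4 rose (57.1%, against 34.6%). H2afx, the variant phosphorylated at DNA breaks and the 1 variant with a stem-loop, had 235, 183 and 286 CPM in control, 133, 123 and 161 CPM in HD-het and 222, 231 and 273 CPM in HD-homo libraries. It fell by 0.75 ± 0.16 (edgeR adjusted p = 0.0017), with no overlap, while HD-homo overlapped control. H2afy, which encodes macroH2A1, fell by 0.87 ± 0.08 with little spread, from 131, 128 and 133 CPM to 73.9, 69.0 and 71.6 CPM (edgeR adjusted p = 5.6e-06), and had 126, 114 and 106 CPM in HD-homo libraries, just below control. H1f0, the linker histone of slowly dividing and differentiated cells, had 159, 154 and 155 CPM in control, 116, 110.1 and 106 CPM in HD-het and 129.5, 153 and 116 CPM in HD-homo libraries, and fell by 0.49 ± 0.10 in HD-het cells (edgeR adjusted p = 0.0012).

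For both H2A.Z and H3.3, 1 gene was called in HD-het against control and the other was not. The difference within each pair was not tested. H2afz, which encodes H2A.Z.1, had 688, 616 and 650.1 CPM in control, 526, 483 and 533 CPM in HD-het and 495, 564 and 523 CPM in HD-homo libraries. Both mutant lines lay below control and overlapped each other, with falls of 0.34 ± 0.08 and 0.31 ± 0.08 (edgeR adjusted p = 0.0039 and 0.011), and none of its coding windows is unique. H2afv, which encodes H2A.Z.2, had 29.3 ± 1.62, 31.3 ± 4.17 and 36.1 ± 7.38 CPM (SD, n = 3), was not called in any comparison, and gave 0.10 ± 0.15 in HD-het against control. H3f3b, 1 of the genes of H3.3, had 547, 548 and 447 CPM in control, 373, 401 and 356 CPM in HD-het and 595, 421 and 508 CPM in HD-homo libraries, and fell by 0.45 ± 0.13 in HD-het cells (edgeR adjusted p = 0.0098). H3f3a, the other gene of the same protein, had 73.8, 65.7 and 74.9 CPM in control, 62.3, 75.8 and 53.2 CPM in HD-het and 66.2, 73.2 and 83.3 CPM in HD-homo libraries, which all overlapped, and gave -0.16 ± 0.13 in HD-het against control (adjusted p = 0.3). No coding window of H3f3a is unique. The row of H3f3c, which shares 80.8% of the windows of H3f3a, gave -0.15 in HD-het against control and was not called either.

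**Figure D3:**
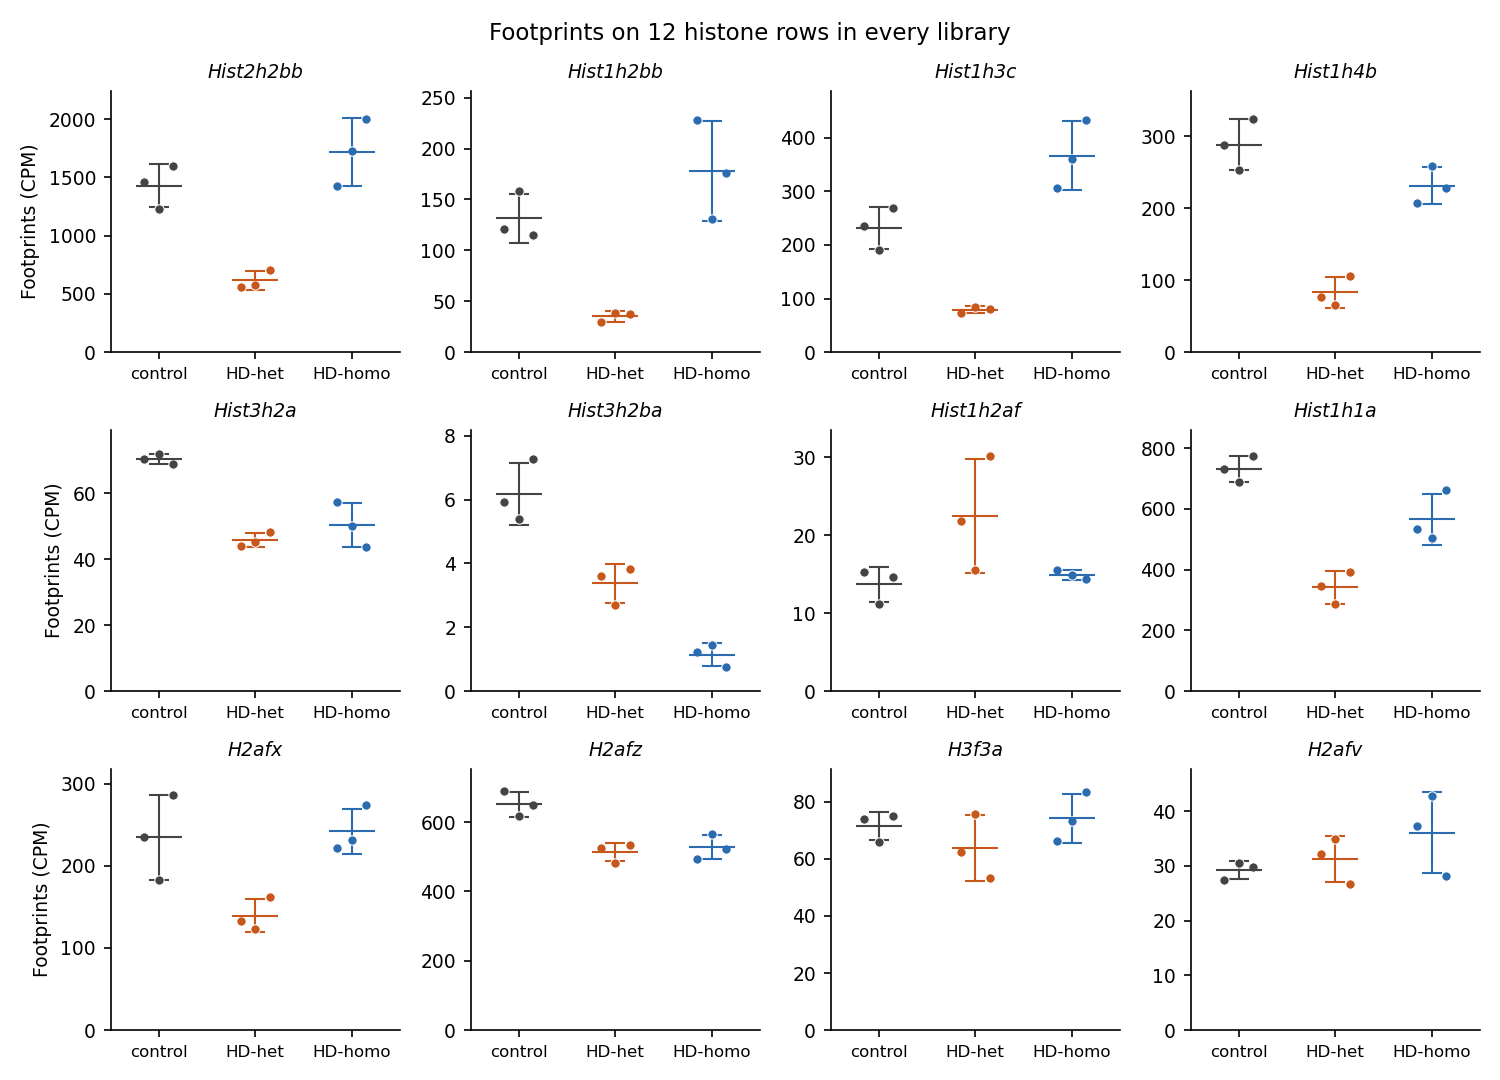
Footprints (y axis, CPM) in every library for 12 members, with mean lines and SD whiskers. The upper row shows 4 rows that were lowest in HD-het, of which Hist1h3c was also called higher in HD-homo than in control. The middle row shows 4 rows that departed from the common course. The lower row shows 4 variants, of which H3f3a and H2afv overlap in all lines.

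The share of each gene within its family showed where the lines differed beyond a common change. Of the H1 footprints, Hist1h1a gave 17.7% to 19.2% in control, 16.1% to 16.6% in HD-het libraries and 11.8% to 13.8% in HD-homo libraries, with no overlap, while Hist1h1c gave 13.1% to 15.3%, 16.9% to 17.8% and 15.4% to 18.6%. Of the H4 footprints, Hist4h4 gave 19.4% to 22.2% in control, 23.4% to 26.1% in HD-het libraries and 12.7% to 17.7% in HD-homo libraries, so its share was highest in the line where its level was lowest. Hist1h4b gave 11.99% to 12.5%, 6.60% to 8.54% and 8.71% to 10.2% in that order, again with no overlap between lines. Hist2h4 also lay below control in both mutant lines, with 9.83% to 10.1%, 7.07% to 9.25% and 7.36% to 9.04%. Of the coding windows 82.6% are unique for Hist2h4 but only 19.1% for Hist1h4b. Among H3 rows, Hist1h3f took 28.2% to 31.5% in HD-het libraries and 16.9% to 27.0% in the others. Hist2h2bb gave 53.7% to 56.3% of the H2B footprints in control, 56.4% to 59.6% in HD-het and 52.3% to 56.8% in HD-homo libraries, so that HD-het libraries lay just above control and HD-homo overlapped both. These shares were not tested, and within a family they are tied to each other since they sum to the whole.

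**Figure D4:**
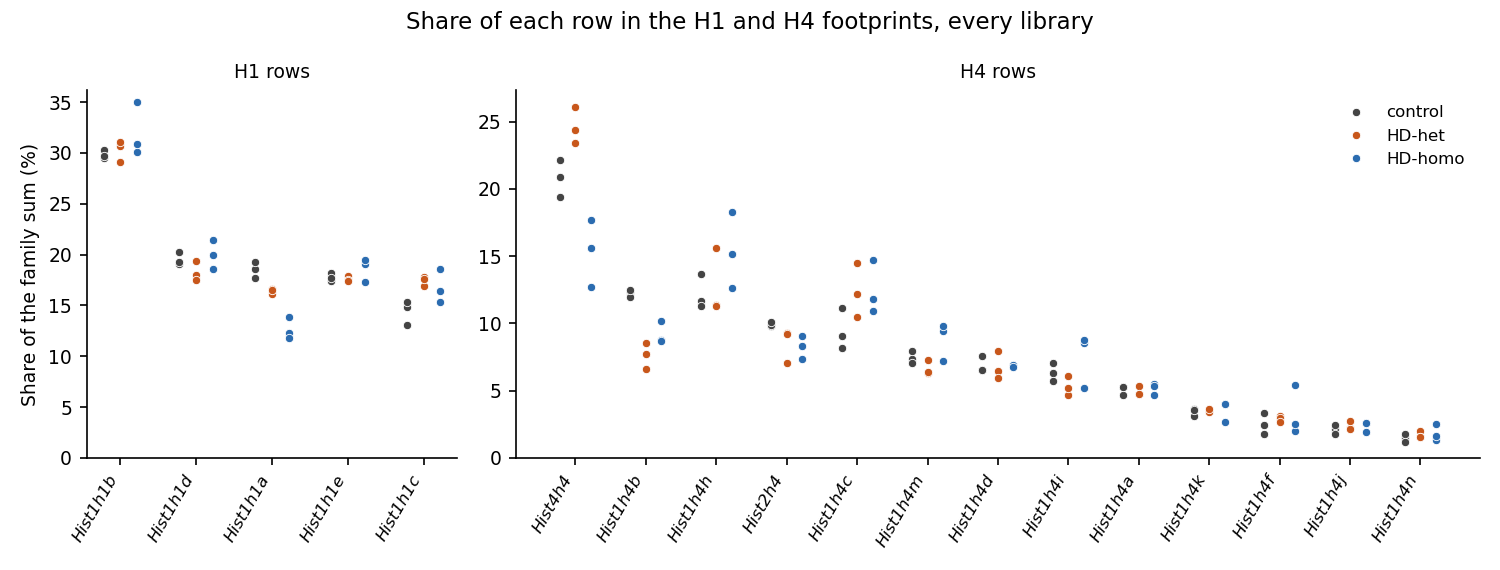
Share of each row in the summed footprints of its family (y axis, %), for the H1 rows on the left and the H4 rows on the right, with 3 points for the libraries of each line. Hist1h1t is left out because it is below 1 CPM in every library. The shares of Hist1h1a, Hist1h4b and Hist2h4 lie below control in both mutant lines. Hist4h4 has its highest share in HD-het and its lowest in HD-homo cells.

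The fall in HD-het cells was also present among rows with at least 50% unique windows, though windows of such rows can still be shared. Of these rows Hist1h2aa and Hist1h2ba were not called. Of the 11 tested cluster rows with at least 50% unique windows 9 fell, with a median log2 fold change of -0.94, and of the 55 rows under 50% unique windows 52 fell and 1 rose, with a median of -1.22. Summed over the rows with mostly unique windows, the log2 ratio of HD-het to control was -0.94 in all, of which H1 rows carried most counts. It was -0.72 for H2A, -1.06 for H2B and -1.01 for H4. These 3 sums held 2 rows each, at 29.4, 6.23 and 724 CPM in control. The sums over all rows of these families were 3259, 2606 and 2346 CPM, so the H2A and H2B values covered little of their families. No H3 row had mostly unique windows. For the pair of H4 rows the sum in HD-homo cells was below control, at a log2 ratio of -0.29, where the sum over all H4 rows had 0.10.

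**Figure D5:**
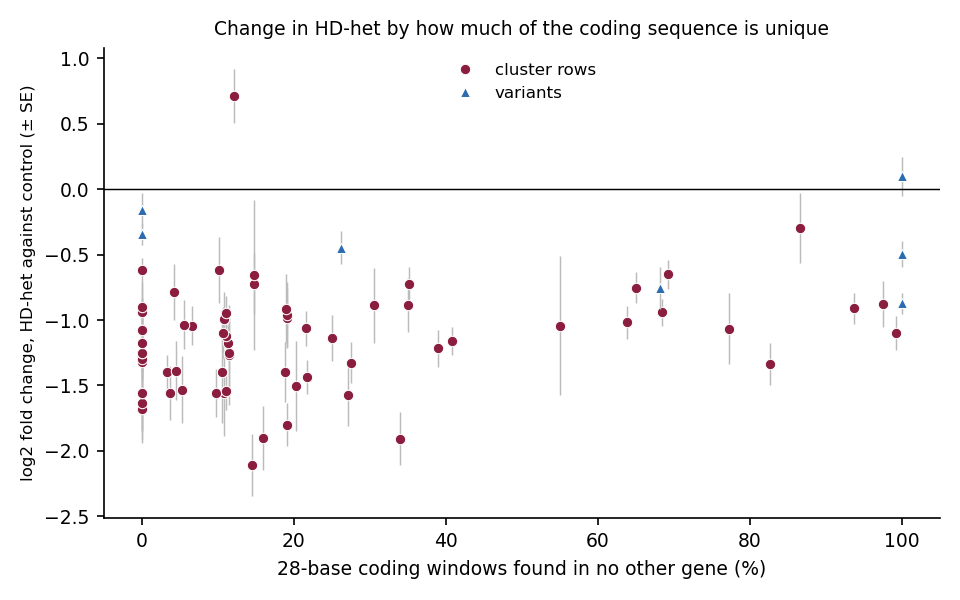
Log2 fold change in HD-het against control (y axis, with SE) of each tested member against the percentage of its 28-base coding windows found in no other gene (x axis). Circles are cluster rows and triangles are variants. Cluster rows lie below 0 along the whole x axis except for 1, Hist1h2af at 12.1% unique windows.

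Since 61 of the 66 tested cluster rows fell, a split by stem-loop match or promoter letters could hardly divide the rows that fell from the rest. Of 62 tested cluster rows with a stem-loop match 58 fell, with a median log2 fold change of -1.15. Of the 4 with no match to the pattern searched 3 fell, with a median of -0.99. Rows with TATAAA in the promoter had a median of -1.14 (32 of 35 fell) and rows without it -1.22 (23 of 25 fell). Rows with CCAAT had -1.18 and those without, all of which are H4 genes, -1.06. Rows with the octamer had -1.22 and those without -1.10. These splits were described and not tested.

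Of the genes that act on histone mRNA, from SLBP and U7 snRNP components to the cap-binding complex, 17 of 18 were tested, and in HD-het against control 10 fell (58.8%, against 29.1% of all tested rows) and none rose, with a median log2 fold change of -0.25. HD-homo cells had 5 higher and 2 lower than control (29.4% and 11.8%, against 23.3% and 22.3% of all rows), and in HD-homo against HD-het 7 rose and 3 fell (41.2% and 17.6%, against 34.6% and 32.8%), so that the shares that rose were near those of all rows. Slbp, the stem-loop binding protein, had 235, 219 and 239.9 CPM in control, 179.9, 167 and 175 CPM in HD-het and 254, 273 and 321 CPM in HD-homo libraries. The lines did not overlap, and Slbp fell by 0.41 ± 0.09 with 1 expanded allele and rose by 0.29 ± 0.09 with 2 (edgeR adjusted p = 0.0028 and 0.027). Coil, the scaffold of Cajal bodies, and Ncbp1, the large subunit of the nuclear cap-binding complex, each fell by 0.61 in HD-het cells. In HD-homo cells Cpsf2, a subunit of the cleavage complex, fell by 0.54 ± 0.07, and Ncbp2, the small cap-binding subunit, rose by 0.62 ± 0.08 on the log2 scale.

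Histone chaperones, which carry histones to and from DNA, fell in HD-het cells for 11 of 20 genes (55%, against 29.1% of all tested rows) and rose for 1, with a median log2 fold change of -0.24. Against control, 3 rose and 6 fell in HD-homo cells (15% and 30%, against 23.3% and 22.3% of all rows), and in HD-homo against HD-het 11 rose and 3 fell (55% and 15%, against 34.6% and 32.8%). Npm1, a nucleolar chaperone, had 3002, 2963 and 2901 CPM in control, 1272, 1389.7 and 1586 CPM in HD-het and 3374, 3056 and 3550.5 CPM in HD-homo libraries, and fell by 1.06 ± 0.10 (edgeR adjusted p = 4.4e-06). Tonsl, which reads newly made histone H4, fell by 0.99 ± 0.11 in HD-het cells. Asf1a and its paralog Asf1b, which hand H3 and H4 to the assembly machinery, parted in HD-homo cells, where Asf1a fell by 0.26 ± 0.08 and Asf1b rose by 0.76 ± 0.08 (edgeR adjusted p = 0.022 and 1.6e-05). Both had fallen in HD-het cells, by 0.77 and 0.32. Anp32e, which removes H2A.Z from chromatin, fell by 0.67 in the HD-het and by 0.63 in the HD-homo line. H2afz was called lower in the same lines, and a link between these falls was not tested.

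Most genes of S phase, the phase in which cluster histones are made, fell in HD-het cells. Of 30 genes 26 fell and 2 rose in HD-het against control (86.7% and 6.67%, against 29.1% and 31.0% of all tested rows), with a median log2 fold change of -0.50. Between HD-homo and control 7 were called higher and 6 lower (23.3% and 20%), which is near the shares of all rows, and in HD-homo against HD-het 23 rose and 3 fell (76.7% and 10%, against 34.6% and 32.8%). Their summed level lay between 5700 and 5950 CPM in control, between 4060 and 4290 CPM in HD-het and between 5360 and 5790 CPM in HD-homo libraries, and its part in the course of the histone rows was not tested. Pcna, the replication clamp, had 776, 786 and 857 CPM in control, 582, 669 and 639 CPM in HD-het and 796, 808 and 868 CPM in HD-homo libraries, and fell by 0.36 ± 0.08 in HD-het cells (edgeR adjusted p = 0.003). Cdc6, a licensing factor, fell by 1.13 ± 0.12 and Prim1, the primase, by 1.11 ± 0.11, while E2f1, a transcription factor of S phase entry, rose by 1.15 ± 0.12 in HD-het cells. In HD-homo against control Tyms rose by 0.50 ± 0.08 and Gins3 by 0.49.

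Mitosis genes were mixed, with 8 of 15 lower and 4 higher in HD-het against control (53.3% and 26.7%, against 29.1% and 31.0% of all tested rows) and a median log2 fold change of -0.30. With 2 expanded alleles 5 were higher and 1 lower than in control (33.3% and 6.67%, against 23.3% and 22.3% of all rows), and in HD-homo against HD-het 8 were higher and 3 lower (53.3% and 20%, against 34.6% and 32.8%). Mki67, a marker of dividing cells, had 155, 160.1 and 149 CPM in control, 322, 344 and 368 CPM in HD-het and 102, 132 and 89.3 CPM in HD-homo libraries, the reverse of the order of the histones. Ccnb2, a mitotic cyclin, rose by 1.50 ± 0.13 and 1.33 ± 0.13 in the mutant lines, whereas Cdk1, its kinase partner, fell by 0.89 ± 0.07 in HD-het cells (edgeR adjusted p = 4.2e-06, 1e-05 and 1.6e-06).

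Of 9 other histone variants, H2afy3, H2afb1, H1fnt and H1foo had a count of 0 in every library and 5 were tested. H2afy2, which encodes macroH2A2, fell by 0.66 ± 0.10 in HD-het cells like H2afy. H1fx, the linker histone H1X, rose there by 0.59 ± 0.17, from 35.7 to 53.5 CPM, in the direction opposite to every other H1 row tested (edgeR adjusted p = 0.011). The call of H1fx was lost without the deepest library of each line and at an adjusted p under 0.01. H2afj and Cenpa, the centromeric H3 variant, gave 0.22 ± 0.17 and -0.17 ± 0.08 in HD-het against control and were not called, as was H3f3c.

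Some facts of the libraries bear on these values. Of the tested members 22 (30.1%) had their lowest level in the deepest library of each line, against 8.13% of all rows, and 4 (5.48%) their highest, against 5.02%. Without these 3 libraries 68 members were called lower in HD-het against control. Of 16 markers of striatal projection neurons 11 were under 1 CPM in every library, and Drd1, Drd2 and Gpr6 were at 0, as were the oligodendrocyte genes Mog and Olig2. Summed mesenchymal markers lay between 6410 and 9170 CPM in control, between 25500 and 27800 CPM in HD-het and between 5600 and 7120 CPM in HD-homo libraries, with Lum under 1 CPM. Col1a1 and Acta2 made up most of this sum, which hid opposite moves in HD-homo cells, where Acta2 fell from a mean of 4099 to 267 CPM while Col1a2 rose from 24.0 to 1027 CPM and Dcn from 7.30 to 40.6 CPM. Summed neural progenitor markers lay between 9600 and 9870, 9020 and 9840, and 6020 and 6550 CPM in the same order, nearly all of it Vim. Other progenitor genes moved apart, as Nes had means of 399.5, 1086 and 7.01 CPM, Sox2 51.1, 33.9 and 2.26 CPM, Pax6 17.3, 24.8 and 0.0759 CPM and Dlx2 9.25, 2.11 and 19.9 CPM, again in that order, and each of these 4 was called in every comparison. The part of either list in the histone values was not tested.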

How the data were processed

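Ribosome footprints were sequenced from the 80S monosome fraction of 9 libraries, 3 for each line. Per the labels, a mixture of RNase A and RNase T1 digested the lysates, a gel cut kept fragments between 26 and 32 nt, and small RNA libraries followed rRNA depletion. The submitters' processing notes name cutadapt, Bowtie 1.0.1 and mouse build mm10 (GRCm38). The authors deposited raw counts of footprints per gene symbol, with 1 column per library and no normalization. The counting program, its annotation, its use of strand and its treatment of fragments with several matches are not given in the sources used here. No column was left out.

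Counts were analysed with edgeR 4.0.16 (R 4.3.3, limma 3.58.1), with TMM factors, filterByExpr by line and the quasi-likelihood test over all 9 libraries, with Benjamini-Hochberg adjustment over the 12678 rows kept. CPM are counts over the TMM-scaled total, times 1000000, and SE is the absolute log2 fold change over the square root of F. The fit was tested on simulated data. The study's methods name no count test per gene here. Samples were grouped by the line in their titles. The p-values rest on the spread between rounds of culture within a line, with 1 estimate shared by the 3 lines. They do not measure the spread between separate lines of a genotype. A count of 0 allows up to 3 counts, which is 0.0716 to 0.133 CPM, and covers counting error only.

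Members and lists were chosen with earlier results of these data known. Named one by one were the 7 variants, the 25 cluster rows with the highest mean, and the 3 largest rises and falls past the threshold in each comparison. Of the pathway lists, the first gene and the 2 largest changes in each comparison were named. Other list genes, and the members singled out for a lost call or for both call directions, were named after their values were seen. Lists of microglia, astrocyte, oligodendrocyte, endothelial and neuron markers were also read. Coordinates, coding lengths and the 28-base windows come from GENCODE M21 on GRCm38, and names from RefSeq. Alternatives were RLE size factors, total counts, the Wald test of DESeq2 1.42.0, an unfiltered table, a minimum of 10 counts throughout, fits of only 6 libraries, a block for the replicate number, stricter thresholds, and leaving out each library. After the data were seen, fits without the deepest library of each line, without repeated rows and on rows with mostly unique windows were added.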

Additional observations from a re-analysis of the deposited data

How the results depend on the processing

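In HD-het against control 63 of the 66 members called lower, and the 1 called higher, remained called under every other normalization, filter, tool and set of libraries tried at the same threshold. Hist1h2bn, Hist1h3f and Hist1h4f lost the call when single libraries were left out, and the number of lower members then ran from 64 to 67. In HD-homo against HD-het 58 of the 64 members called higher remained so, with 61 to 65 on leaving out single libraries. In HD-homo against control 3 of 9 higher and 3 of 4 lower members remained called. There 17 members were higher with total counts, and between 4 and 21 on leaving out single libraries, with 3 to 6 lower. Members called lower in HD-homo against HD-het numbered 1 or 2 on leaving out single libraries. No named value that was called changed sign under any setting.

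At an adjusted p under 0.01, members numbered 0 higher in HD-het against control, 3 higher and 2 lower in HD-homo against control, and 1 lower in HD-homo against HD-het. With at least a 2-fold change these were 0, 0, 1 and 1, and 43 were lower in HD-het against control.

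Sums over rows with mostly unique windows gave log2 ratios of HD-het to control of -0.72 for H2A, -1.06 for H2B and -0.94 for all families, of HD-homo to HD-het of 0.78 for H2A, 1.16 for H2B, 0.72 for H4 and 1.05 for all, and of HD-homo to control of -0.29 for H4. On leaving out single libraries the log2 ratio of all cluster rows ran from -1.26 to -1.07, from 0.11 to 0.28 and from 1.25 to 1.47 in the 3 comparisons. In the same order it ran from -1.04 to -0.82, 0.12 to 0.21 and 1.00 to 1.21 for H1, from -1.43 to -1.18, 0.01 to 0.14 and 1.25 to 1.51 for H2A, from -1.45 to -1.20, 0.09 to 0.40 and 1.39 to 1.71 for H2B, from -1.39 to -1.08, 0.35 to 0.68 and 1.59 to 1.91 for H3, and from -1.24 to -1.05, 0.03 to 0.17 and 1.16 to 1.34 for H4.

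Counts of the lists moved where they were small. In HD-het against control, genes of histone mRNA processing numbered 1 higher with at least 10 counts in every library and 6 lower both without the deepest libraries and at the stricter p. S phase genes numbered 1 higher with total counts, no filter, without the deepest libraries and at the stricter p. Mitosis genes numbered 2 higher with total counts, without the deepest libraries and at the stricter p, where 5 were lower. Other variants numbered 0 higher without the deepest libraries and at the stricter p, and 2 lower in the fit of 6 libraries and without the deepest. In HD-homo against control, processing genes numbered 3 higher with no filter and without the deepest libraries, and 2 in the fit of 6 and at the stricter p. S phase genes numbered 3 higher and 2 lower both without the deepest libraries and at the stricter p, and mitosis genes 0 lower without the deepest. In HD-homo against HD-het, processing genes numbered 1 lower with total counts, without the deepest libraries and at the stricter p, and other variants 1 higher in the fit of 6 and at the stricter p, and 2 lower without the deepest. At 2-fold, S phase genes numbered 1 higher and 3 lower, mitosis genes 2 and 0, chaperones 0 and 1, and processing genes and other variants 0 and 0 in HD-het against control. In HD-homo against control all were 0 but 1 higher mitosis gene. In HD-homo against HD-het there were 4 higher and 1 lower S phase genes, 0 and 1 mitosis genes, 2 and 0 chaperones, and 0 and 0 in the other lists. The cause of these moves was not tested.

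Correlations of same-numbered libraries in their deviations from the line means ran from -0.356 to 0.174, so the numbers do not pair the libraries. With the replicate number as a block, 66 members were lower and 1 higher in HD-het against control, 12 higher and 5 lower in HD-homo against control, and 64 higher and 2 lower in HD-homo against HD-het. Of the members called without the block, Hist1h3h alone was not called with it, in HD-homo against control. Depth limits the lowest members most, such as Hist1h2aa and Hist1h2ba, which were under 5 CPM.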
